A study of Mus musculus with 8 samples.

Results

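The 10 genes of the adherens junction described here were followed in lymphatic endothelial cells of inflamed and untreated mouse ear skin. They encode the cadherins Cdh5, Cdh2 and Cdh13, the catenins Ctnna1, Ctnnb1, Ctnnd1, Jup and Pkp4, the nectin adaptor Afdn and the junctional phosphatase Ptprm. The members are the probe sets whose platform annotation names exactly 1 gene and names 1 of these 10. This gave 24 probe sets of the 34945 in the table that name 1 gene, and 10 of the 18193 genes so named. Of the 24, 19 were bright enough to be tested, and they covered 9 of the 10 genes. The exception was Cdh2.

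Inflamed samples came from female FVB mice sensitised with 2% oxazolone, a contact allergen, and challenged 5 days later on the ears with 10 µl per side of a 1% solution. The ears were collected 24 hours later. Healthy female FVB mice gave the untreated samples. Each group held 4 samples, each pooled from the ears of 3 mice aged 8 to 10 weeks. The 8 samples formed 4 pairs of 1 inflamed and 1 untreated sample handled on the same day. Cells were sorted as CD45- CD31+ podoplanin+, and their RNA was amplified before it was hybridised to 1 oligonucleotide array a sample. The comparison addresses how transcripts of lymphatic endothelial cells differ between inflamed and resting skin.

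Adherens junctions hold endothelial cells together. The outer part of VE-cadherin, the product of Cdh5, binds its counterpart on the neighbouring cell. Its cytoplasmic tail binds p120-catenin near the membrane and either β-catenin or plakoglobin further along, and α-catenin joins that complex to actin. In initial lymphatic vessels VE-cadherin sits in discontinuous, button-like junctions that let fluid and leukocytes in, while collecting vessels have continuous, zipper-like ones.

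Values are log2 of the deposited array signal, and a change is the inflamed minus the untreated value averaged over the 4 pairs. Levels are compared within a probe set only, because different probes bind with different strength. A background ceiling, the 95th percentile of bacterial control probe sets, lay between 2.53 and 3.31 on the 8 arrays. The mean signal was 139.6 to 160.4 on inflamed and 126.2 to 146.3 on untreated arrays, and 53.5% to 56.0% and 54.9% to 62.6% of probe sets were above the ceiling. Of the defining genes of the labelled cell type, Lyve1 averaged 11.96 in inflamed and 12.14 in untreated samples. Flt4 averaged 11.93 and 12.30, and Prox1 9.73 and 11.17. Some markers of other cell types were also above the ceiling on all 8 arrays. Col1a2, of fibroblasts, averaged 12.04 in inflamed and 11.80 in untreated samples, and Comp, of cartilage, 10.49 and 10.72. The part of such cells in the junction signals was not tested. The log2 ratio of the 3′ to the 5′ probe set of Gapdh, a measure of how complete the amplified RNA is, was lower in inflamed than in untreated samples of each pair, at means of 3.06 and 3.85. That of Actb was -0.07 and -0.08. Of 11 neutrophil markers on the array, S100a8 averaged 8.51 in inflamed and 1.49 in untreated samples and S100a9 9.57 and 2.27, and both passed the brightness filter only through their inflamed arrays. The other 9 were too dim to test.

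Of the 9 genes tested, Cdh13 was the only one past the threshold, an adjusted p under 0.05 in limma with the pair as a block, and it fell. That is 1 of 9, or 11.1%, where 6.93% of all 10842 genes passed in either direction, 3.03% lower and 3.9% higher. A further 3 genes, Cdh5, Ctnna1 and Jup, had an unadjusted p under 0.05 and did not pass. By unadjusted p, Cdh5 ranked 1984, Ctnna1 1783 and Jup 1000 of the 10842 genes, so at least 1984 genes were under 0.05. The measured signal was higher in inflamed samples for 3 genes and lower for 6, with a median change of -0.36, against -0.09 over all genes tested. Cdh13, Ctnnd1 and Jup were lower in all 4 pairs, as 15.5% of all genes were, and Ctnna1 was higher in all 4, as 13.6% were. For none of the 9 did the 4 inflamed and the 4 untreated arrays separate without overlap on the probe set that stands for the gene, which 13.1% of all genes did, 6.29% with the inflamed arrays higher and 6.84% lower.

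**Figure D1:**
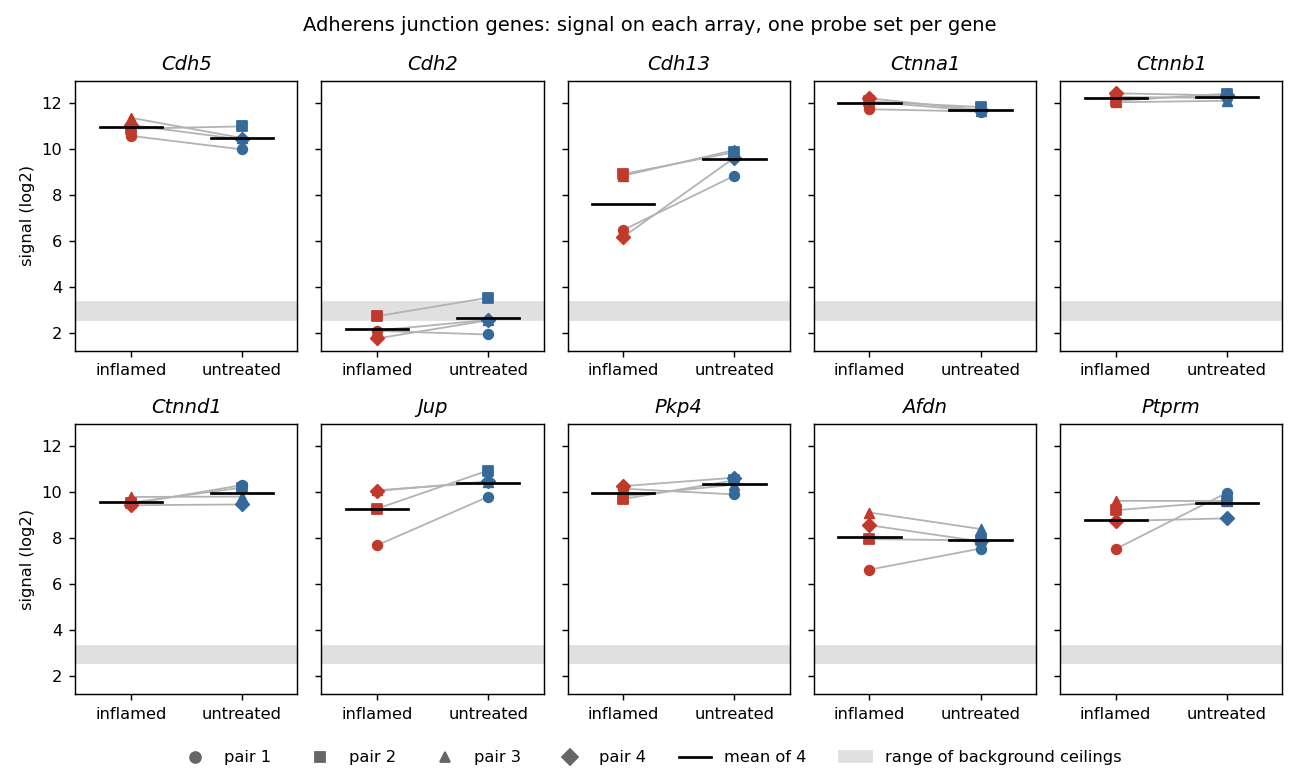
Log2 signal (vertical axis) of the 10 genes on each array, with inflamed left of untreated, 1 probe set per gene, a symbol per pair, a grey line joining the 2 samples of a pair and a black bar for the mean of 4. The inflamed mean of Cdh13 lies 1.97 below the untreated mean, those of Ctnnb1 differ by -0.06, and Cdh2 lies in or under the grey band that spans the background ceilings of 2.53 to 3.31 on all but 1 array.

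β-catenin and plakoglobin are close relatives with armadillo repeats that compete for the same stretch of the cadherin tail. Their upstream sequences are shown because the results set these alternative partners of VE-cadherin against each other. They are the 250 bases before a RefSeq start site, 5′ to 3′ on the gene's strand in GRCm38.p6. For Ctnnb1 this is chr9:120933150-120933399 on the plus strand, and for Jup chr11:100397791-100398040 on the minus strand. The annotated Jup gene begins at 100397839, so the end of its window, with the last marked match, lies inside the gene. Capitals mark matches on either strand to CCAAT, a promoter box bound by NF-Y, to GGGCGG, the GC box bound by Sp1, and to GGAA, the core of sites for ETS factors such as ERG, where CCAAT and GGAA share letters once in Ctnnb1.
Ctnnb1: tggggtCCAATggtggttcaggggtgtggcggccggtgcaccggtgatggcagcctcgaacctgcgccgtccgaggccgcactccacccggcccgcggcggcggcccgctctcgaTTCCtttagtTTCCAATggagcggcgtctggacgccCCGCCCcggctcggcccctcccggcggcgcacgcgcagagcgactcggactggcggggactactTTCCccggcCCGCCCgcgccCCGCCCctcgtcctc
Jup: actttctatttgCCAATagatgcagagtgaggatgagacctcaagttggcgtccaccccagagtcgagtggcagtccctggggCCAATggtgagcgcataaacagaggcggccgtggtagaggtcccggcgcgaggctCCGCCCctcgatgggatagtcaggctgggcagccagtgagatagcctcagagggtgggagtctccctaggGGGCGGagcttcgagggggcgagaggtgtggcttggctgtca
Ctnnb1 held 2 matches to CCAAT, 3 to GGGCGG and 3 to GGAA in this window. Jup held 2, 2 and 0. Of all 32851 windows of this length in the RefSeq table, 33.8% held CCAAT, 32.7% GGGCGG and 93.4% GGAA. These are matches of letters and describe the windows only. The table holds Ctnnb1, Ctnnd1, Jup, Pkp4, Afdn and Ptprm.

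Cdh5 encodes VE-cadherin, the cadherin on which endothelial junctions are built. On its brighter probe set, 1422047_at, the signal was 10.57, 10.87, 11.35 and 11.04 in inflamed samples 1 to 4, against 9.97, 10.98, 10.47 and 10.41 in untreated samples 1 to 4. The signal was higher in 3 pairs and differed by -0.10 in pair 2, and the groups overlapped through untreated sample 2. The change was 0.50 ± 0.20 (SE, n = 4 pairs), a ratio of 1.41, with a 95% interval from 0.05 to 0.95, and it did not pass in limma (adjusted p = 0.181). The dimmer probe set 1433956_at was 8.46, 9.85, 9.90 and 8.68 in inflamed samples, against 8.77, 9.70, 9.63 and 10.44 in untreated samples. Here pairs 2 and 3 were slightly higher and pairs 1 and 4 lower in inflamed samples. Its change of -0.41 ± 0.35 did not pass either (limma adjusted p = 0.568), so the probe sets of Cdh5 pointed in opposite directions and neither change was past the threshold.

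The brighter Cdh5 probe set was also set against the sort markers. Pecam1, which encodes the CD31 used in the sort, averaged 9.78 ± 0.85 in the inflamed group and 10.50 ± 0.10 in the untreated group (n = 4 each, SD), which did not pass in limma (adjusted p = 0.188). The change of Cdh5 exceeded that of Pecam1 by 1.22 ± 0.93 on the log2 scale (SD of 4 pairs), by 1.90, 0.12, 0.78 and 2.09 in pairs 1 to 4. The exact two-sided sign-flip permutation test gave p = 0.13, the smallest that 4 pairs allow, and 0.167 after adjustment over 4 contrasts between genes. Pdpn, which encodes podoplanin, the other marker sorted for, averaged 12.00 in inflamed and 11.44 in untreated samples, higher in all 4 pairs, with a change of 0.56 ± 0.15 (SE) that did not pass in limma (adjusted p = 0.0605). That change lies next to the 0.50 of Cdh5, and the contrast of Cdh5 with Pdpn was not tested. With the mean of each gene's probe sets the excess of Cdh5 over Pecam1 was 0.77, and the change of Cdh5 itself was 0.04. Pan-endothelial markers as a list were lower in inflamed samples in each pair, at a mean of 8.67 against 9.29 over 13 genes, of which 1 passed the threshold upward and 4 downward, where 3.9% and 3.03% of all genes did. In such bulk samples, fewer cells of a type and less RNA per cell cannot be told apart.

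Over all 10842 genes, the profiles nearest to that of the brighter Cdh5 probe set were those of Tubb4b, a β-tubulin, Mrps33, a mitochondrial ribosomal protein, and Tmem87a. After each gene was centred on its own mean, they differed from Cdh5 by 0.104, 0.165 and 0.190 (root mean square of log2 signal over 8 arrays). Their changes were 0.45, 0.47 and 0.45, which largely follows from choosing them by nearness to Cdh5 on the same arrays. None of the 3 passed in limma (adjusted p = 0.419, 0.397 and 0.384).

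Cdh13 encodes T-cadherin, which is held in the membrane by a lipid anchor, lacks the catenin-binding tail of other cadherins and binds adiponectin. On the brightest of its 4 probe sets, 1434115_at, the signal was 6.46, 8.90, 8.83 and 6.16 in inflamed samples 1 to 4, against 8.83, 9.85, 9.94 and 9.61 in untreated samples. Inflamed samples 1 and 4 were far lower than any other array, while inflamed samples 2 and 3 reached the level of untreated sample 1. Cdh13 fell by 1.97 ± 0.45 (SE), to a ratio of 0.255, with a 95% interval of the change from -2.99 to -0.95 (limma adjusted p = 0.0330). Inflamed minus untreated values were -2.37, -0.95, -1.12 and -3.45 in pairs 1 to 4. The mean of the 9 lymphatic endothelial markers differed by -1.25, -1.11, -0.40 and -0.83 in the same pairs, and their part in the Cdh13 difference was not tested.

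Of the other Cdh13 probe sets, those bright enough to test had changes of the same sign and did not pass. Probe set 1423551_at was 6.13, 7.42, 8.86 and 7.66 in inflamed samples, against 6.89, 8.59, 8.91 and 9.27 in untreated samples, lower in all 4 pairs (change -0.90 ± 0.41; limma adjusted p = 0.250). Probe set 1454015_a_at was 5.94, 5.10, 5.73 and 7.29 in inflamed samples, against 7.94, 8.02, 8.06 and 7.06 in untreated samples. Pairs 1 to 3 were lower in inflamed samples, pair 2 the most at -2.92, and pair 4 differed by 0.24 (change -1.75 ± 0.61; limma adjusted p = 0.135). Inflamed sample 4 was thus the lowest inflamed sample on the brightest Cdh13 probe set and the highest on this one. The remaining probe set, 1431824_at, was above the background ceiling on 1 untreated array only and was not tested.

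The Cdh13 call ended when any single pair was left out (change -2.31 to -1.48, limma adjusted p = 0.0548 to 0.121), without the pair block (adjusted p = 0.0877), with a random block (0.0590) and without the intensity trend (0.151). Over all 14 alternatives the change stayed negative, and 7 of them passed.

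Cdh2 encodes N-cadherin, which in vessels is known from contacts between endothelial cells and pericytes. Its brighter probe set was 2.07, 2.71, 2.09 and 1.74 in inflamed samples, against 1.91, 3.52, 2.55 and 2.53 in untreated samples. Only untreated sample 2 was above its array's ceiling, and the second Cdh2 probe set was above the ceiling on 0 of 8 arrays. Cdh2 was therefore not tested, and its transcript was not detectable above background on either probe set in 7 of the 8 samples. For the same reason its contrast with Cdh5, among the 4 adjusted for above, is not read.

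**Figure D2:**
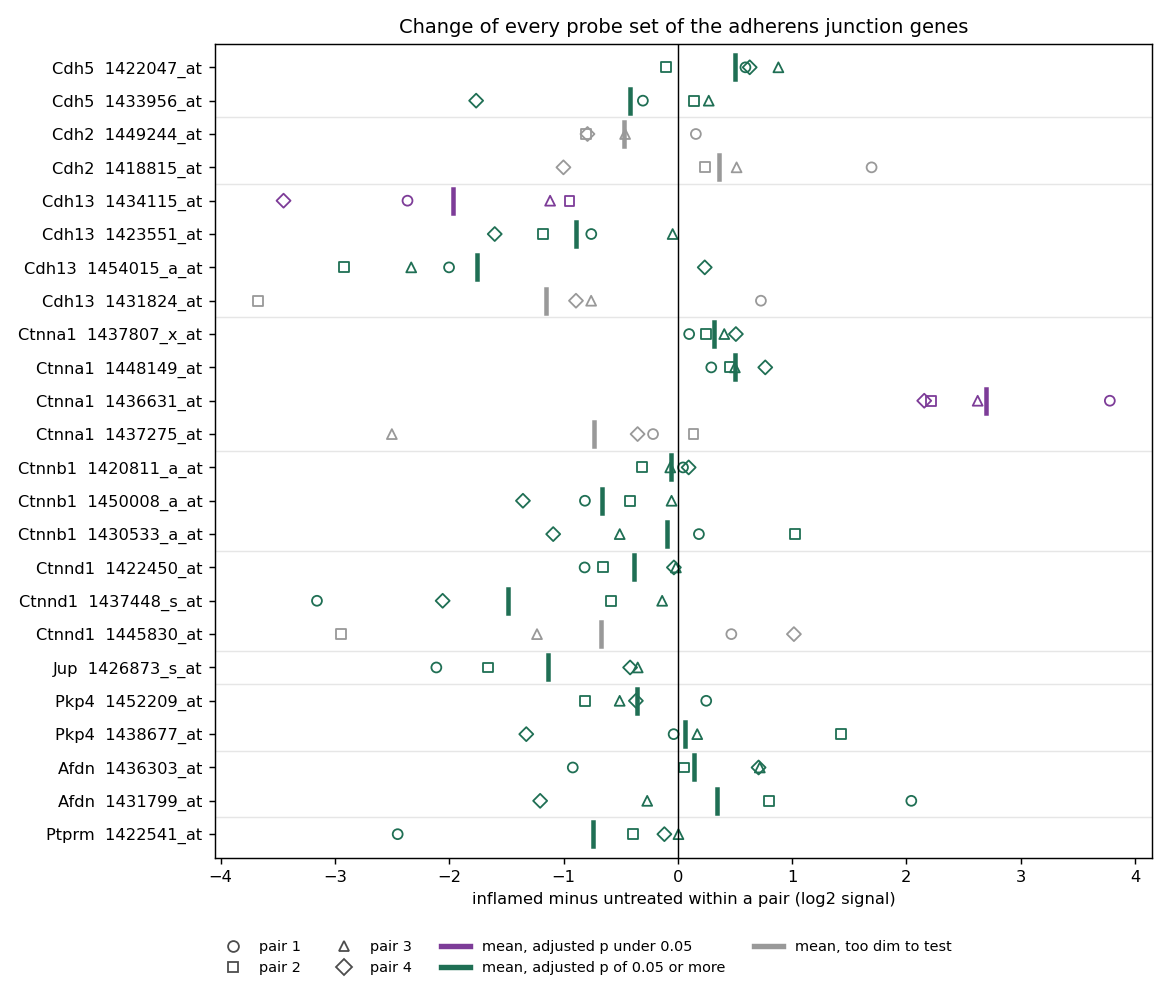
Inflamed minus untreated log2 signal within each pair (open symbols, horizontal axis) and their mean (bars) for all 24 probe sets, grouped by gene. Purple marks the 2 probe sets past the threshold, Cdh13 1434115_at at -1.97 and Ctnna1 1436631_at at 2.69, and grey the 5 that were too dim to test.

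Ctnnb1 encodes β-catenin, which links the cadherin tail to α-catenin and is also the transcriptional effector of Wnt signalling. Its brightest probe set was 12.26, 12.09, 12.03 and 12.42 in inflamed samples 1 to 4, against 12.21, 12.40, 12.09 and 12.32 in untreated samples. The groups lay on top of each other. The change was -0.06 ± 0.11 (SE; limma adjusted p = 0.805), and its 95% interval ran from -0.30 to 0.18. The value depended on the scaling: it was 0.24 under median centring, -0.35 under quantile and -0.39 under cyclic loess normalization (adjusted p = 0.0943 for quantile and 0.0521 for cyclic loess). Without pair 2 it was 0.02. Of the other Ctnnb1 probe sets, 1450008_a_at was lower in all 4 pairs, with a change of -0.66 ± 0.28 (adjusted p = 0.217), and 1430533_a_at differed by -0.10 ± 0.41 (adjusted p = 0.930).

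Jup encodes plakoglobin, which serves in adherens junctions and also in desmosomes, the junctions of keratinocytes. Its single probe set was 7.68, 9.27, 10.07 and 10.05 in inflamed samples, against 9.79, 10.94, 10.42 and 10.46 in untreated samples. All 4 pairs were lower in inflamed samples, with differences of -2.11 and -1.66 in pairs 1 and 2 and of -0.35 and -0.42 in pairs 3 and 4. The change was -1.14 ± 0.33 (SE), a ratio of 0.455 with a 95% interval of the change from -1.88 to -0.39, and it did not pass (limma adjusted p = 0.0762). Under quantile and cyclic loess normalization it did, at -1.29 and -1.28 (adjusted p = 0.0474 for each). The change of Jup minus that of Ctnnb1 was -1.08 ± 0.85 (SD), below 0 in 4 of 4 pairs (exact sign-flip p = 0.13, the smallest possible, adjusted p = 0.167).

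Keratinocyte markers were lower in inflamed samples too. Over the 10 tested markers their mean was 4.25 in inflamed and 7.22 in untreated samples, and 4 passed the threshold downward and 0 upward, where 3.03% and 3.9% of all genes did. The log2 of their summed signal over all 13 on the array ranged from 8.20 to 11.20 in inflamed and from 10.37 to 12.60 in untreated samples. Of these 13, 10 were above background on some inflamed array and 12 on some untreated array. Of the keratins, Krt14 averaged 6.50 in inflamed and 8.40 in untreated samples and was above background on all 4 inflamed arrays. Krt5 averaged 5.14 and 8.67 and was above it on 3. Krt10 averaged 2.70 and 8.69 and was above it on 1, and Krt2 and Krt15 were above it on 0. Krt1 averaged 1.71 and 1.54, was above it on 1 inflamed and 0 untreated arrays, and was too dim to test. Sfn, 1 of the 10 tested markers, averaged 4.62 in inflamed and 3.24 in untreated samples, a higher value that did not pass (limma adjusted p = 0.383). By pair, the mean of the list differed by -3.28, -0.54, -4.61 and -3.47, while Jup differed by -2.11, -1.66, -0.35 and -0.42. The list differed least in pair 2 and most in pair 3, and Jup most in pair 1 and least in pair 3. Among desmosomal genes of the list, Dsp differed by -7.89, 0.96, -3.27 and -3.49 in the same order. Dsc3 differed by -3.57, 1.28, -4.33 and -2.56, and Perp by -2.29, 2.21, -3.94 and 1.26. The part of keratinocyte RNA in the Jup difference was not tested.

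**Figure D3:**
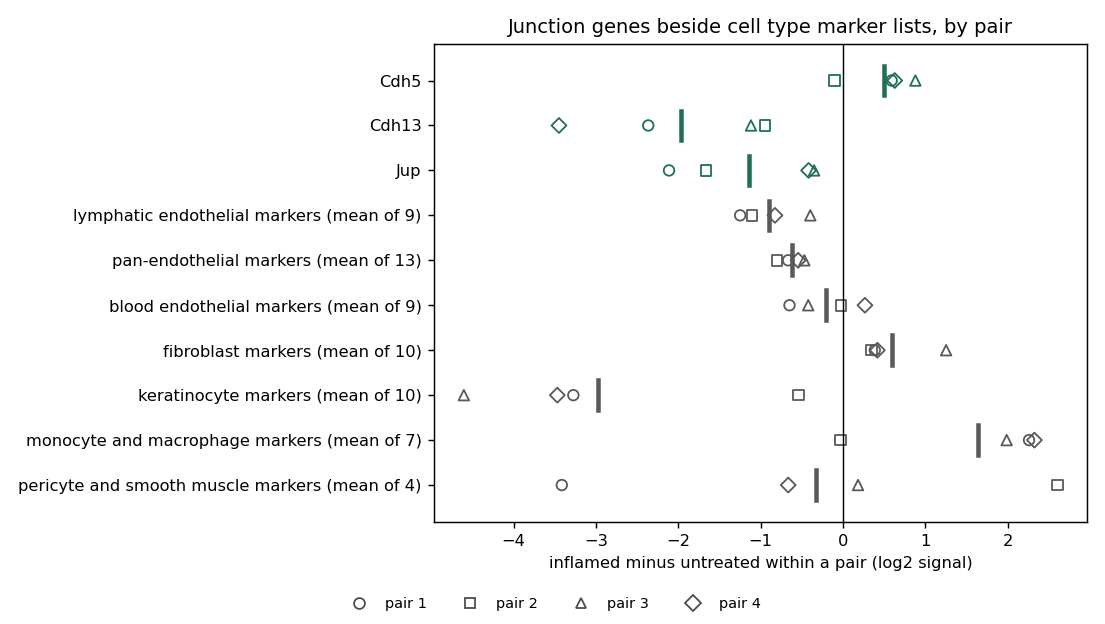
Inflamed minus untreated log2 signal by pair (open symbols, horizontal axis) and mean (bars) for Cdh5, Cdh13 and Jup and for the means of 7 lists of cell type markers. Keratinocyte markers differed by -0.54 in pair 2 and by -4.61 in pair 3, pan-endothelial markers lay between -0.80 and -0.47, and fibroblast markers were above 0 in every pair.

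Ctnna1 encodes αE-catenin, the link between the cadherin complex and actin. Its brightest probe set, 1437807_x_at, was 11.72, 12.06, 12.06 and 12.20 in inflamed samples, against 11.62, 11.82, 11.65 and 11.69 in untreated samples. Every pair was higher in the inflamed sample, by 0.10 to 0.51, and only inflamed sample 1 lay within the untreated range. An ending in _x_at marks probes that may also bind other transcripts. The change of 0.31 ± 0.12 (SE, ratio 1.24) did not pass (limma adjusted p = 0.159). The next probe set, 1448149_at, was 11.43, 12.05, 11.78 and 11.96 against 11.14, 11.59, 11.29 and 11.20 in the same order, higher in all 4 pairs by 0.50 ± 0.13 (adjusted p = 0.0531).

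A dimmer Ctnna1 probe set, 1436631_at, differed more. It was 7.39, 7.24, 8.16 and 6.75 in inflamed samples, against 3.61, 5.02, 5.54 and 4.59 in untreated samples, so that every inflamed array was above every untreated one. It rose by 2.69 ± 0.60 (SE; adjusted p = 0.0308 over the 22515 probe sets tested, limma). Of these probe sets, 3.17% passed upward and 5.61% were higher without overlap. Of the 19 tested probe sets of the 10 genes, 1 was higher and 1, of Cdh13, was lower, where 5.59% of all probe sets passed in either direction and 2.42% downward. The Ctnna1 call ended without the intensity trend (adjusted p = 0.0816) and when any pair was left out (0.0683 to 0.118). By pair this probe set differed by 3.78, 2.22, 2.62 and 2.16, and its change without single pairs was 2.33 to 2.87. These values lie far above the 0.31 and 0.50 of the brighter probe sets. Untreated sample 1, at 3.61, lay just above its ceiling of 2.86, which touches pair 1 only. The positions of the probes were not used here. Under quantile and cyclic loess normalization the change of the brightest probe set was 0.02 and 0.01, and under median centring it was 0.62 and passed (adjusted p = 0.0239).

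Ctnnd1 encodes p120-catenin, which binds cadherins next to the membrane and slows their uptake from the surface. Its brighter probe set was 9.48, 9.54, 9.79 and 9.42 in inflamed samples, against 10.30, 10.19, 9.80 and 9.46 in untreated samples. Pairs 1 and 2 were clearly lower in inflamed samples, and pairs 3 and 4 nearly equal. The change was -0.38 ± 0.25 (SE; limma adjusted p = 0.423). Probe set 1437448_s_at was 6.15, 7.75, 7.81 and 6.49 in inflamed samples, against 9.31, 8.33, 7.95 and 8.55 in untreated samples, with no overlap between the groups, as for 6.6% of all probe sets in this direction. Its change of -1.48 ± 0.54 did not pass (adjusted p = 0.152).

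Pkp4, or p0071, is a relative of p120-catenin that also binds the VE-cadherin tail. Its brighter probe set was 10.15, 9.69, 9.82 and 10.26 in inflamed samples, against 9.90, 10.51, 10.32 and 10.62 in untreated samples. Pair 1 was higher and the other pairs were lower, with a change of -0.36 ± 0.23 (SE; limma adjusted p = 0.413). The second probe set differed by 0.06 ± 0.39. The changes of Pkp4 and Ctnnd1 differed by 0.02 ± 0.71 (SD; exact sign-flip p = 1), or by 0.78 with the mean of each gene's probe sets.

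Afdn encodes afadin, which ties nectins, the other adhesion molecules of the adherens junction, to actin. Its brighter probe set was 6.62, 7.95, 9.11 and 8.56 in inflamed samples, against 7.54, 7.89, 8.39 and 7.85 in untreated samples. The inflamed samples spread above and below the untreated ones, and the change of 0.14 ± 0.42 (SE) had a 95% interval from -0.81 to 1.09 (limma adjusted p = 0.892). The dimmer probe set differed by 0.34 ± 0.71, with untreated sample 1 at 1.96, under its ceiling.

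Ptprm encodes a receptor phosphatase that binds its own kind on the next cell and associates with cadherin complexes. It was 7.52, 9.21, 9.62 and 8.74 in inflamed samples, against 9.97, 9.59, 9.61 and 8.85 in untreated samples. Pair 1 differed by -2.45, and the other pairs by -0.39, 0.01 and -0.12. The change of -0.74 ± 0.42 (SE) did not pass (limma adjusted p = 0.353), and without pair 1 it was -0.17. Inflamed sample 1 was also the lowest inflamed sample for Cdh5, Ctnna1, Jup and Afdn. In this sample the mean of the 9 tested genes was 9.16, against 9.87 to 10.30 in the other inflamed samples and 10.01 to 10.46 in the untreated ones.

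**Figure D4:**
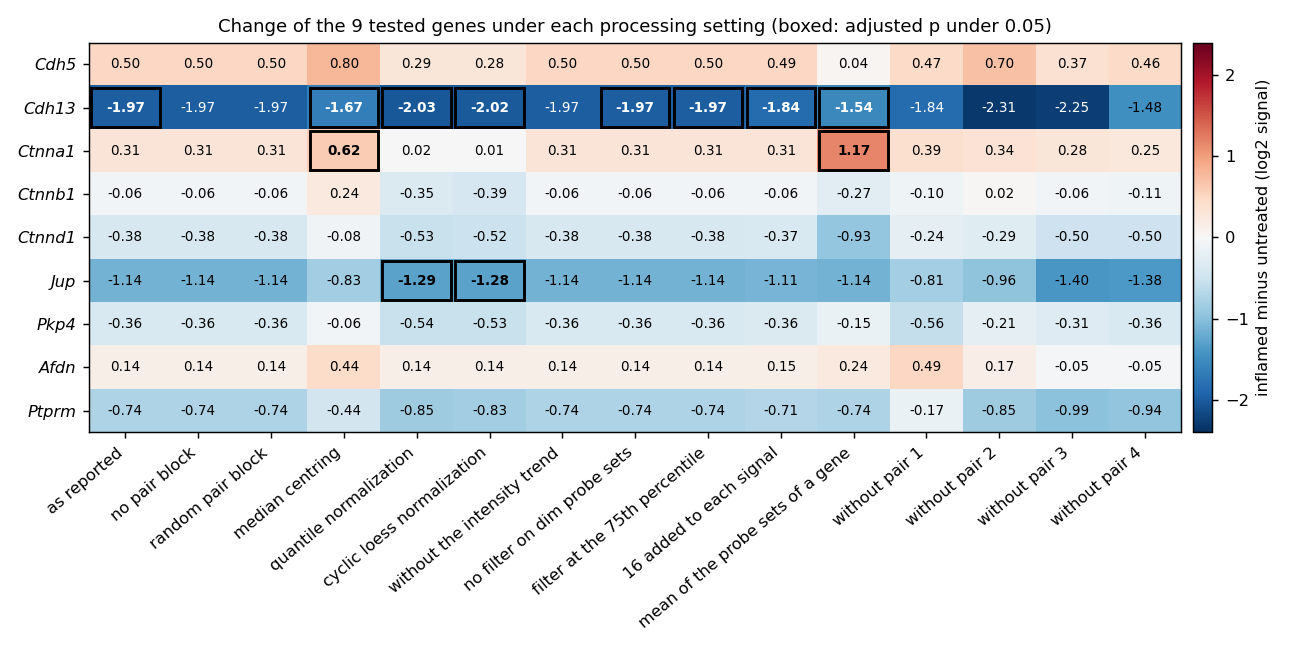
Change in log2 signal, inflamed minus untreated, of the 9 tested genes (rows) under the reported setting and 14 alternatives (columns), with colour from blue (lower) to red (higher) and boxes where the adjusted p was under 0.05. Cdh13 stays between -2.31 and -1.48 and is boxed in 7 alternatives, Jup and Ctnna1 in 2 each, and no other gene in any.

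Of the other classical and related cadherins, 19 were listed and 7 were bright enough to test, and their median change was 0.69. The threshold was passed upward by 1 and downward by 0, where 3.9% and 3.03% of all genes passed. This was Cdh11, OB-cadherin, known from fibroblasts and other mesenchymal cells, which averaged 8.16 ± 0.62 in inflamed and 4.54 ± 1.68 in untreated samples (n = 4 each, SD), higher in all 4 pairs by 3.62 ± 0.75 (SE; limma adjusted p = 0.0205). The call ended without the intensity trend (adjusted p = 0.0986) and without pair 2, 3 or 4. The 10 fibroblast markers averaged 9.58 in inflamed and 8.98 in untreated samples, and this mean was higher in all 4 pairs. Of the 10, 1 passed upward, Lum, and 0 downward, against 3.9% and 3.03% of all genes. Thy1 was lower in all 4 pairs, with a change of -0.65 (limma adjusted p = 0.0757). The log2 of the summed signal of the 10 markers ranged from 13.55 to 14.66 in inflamed and from 12.78 to 14.45 in untreated samples. All 10 were above background on some array of each group, and whether Cdh11 came from such cells was not tested. E-cadherin, Cdh1, was dim, at 4.32 ± 2.13 in inflamed and 3.02 ± 1.46 in untreated samples.

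Of 10 other catenins and plakophilins, 5 were tested, and 0 passed at an adjusted p under 0.05 in limma, with 1 at an unadjusted p under 0.05 (median change -0.77). This was Ctnnal1, α-catulin, with a change of -1.79 ± 0.64 (adjusted p = 0.139). Of the 4 tested nectins and nectin-like genes, 0 passed (median change 0.84), and the poliovirus receptor Pvr, with a change of 1.65 ± 0.47 (adjusted p = 0.0684), was the 1 at an unadjusted p under 0.05. At least 1984 of all 10842 genes were under that unadjusted level. Pvr was past the threshold under median centring and with the stricter filter.

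Of 11 tested actin linkers 2 passed the threshold upward and 0 downward, against 3.9% and 3.03% of all genes (median change 0.04). Actn1, α-actinin, which crosslinks actin, averaged 10.47 ± 0.28 in inflamed and 9.01 ± 0.67 in untreated samples (n = 4 each, SD) and rose by 1.46 ± 0.28 (SE; limma adjusted p = 0.0162). Pdlim1, an actinin-binding protein, rose by 1.65 ± 0.36 (adjusted p = 0.0261). Of 13 phosphatases and kinases that act at VE-cadherin, 1 passed upward and 0 downward, against the same shares of all genes (median change 0.16). This was the phosphatase Ptpn1, or PTP1B, at 10.24 ± 0.43 in inflamed and 8.93 ± 0.21 in untreated samples, a rise of 1.31 ± 0.24 (adjusted p = 0.0129). Ptprb, the endothelial phosphatase VE-PTP, differed by -0.71 ± 0.45 (adjusted p = 0.406).

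Of 9 tested genes of cadherin turnover and shedding, 1 passed the threshold upward and 0 downward, against 3.9% and 3.03% of all genes (median change 0.04). Gna13, a G protein α subunit, averaged 10.04 ± 0.20 in inflamed and 8.80 ± 0.18 in untreated samples (n = 4 each, SD) and rose by 1.24 ± 0.26 (SE; limma adjusted p = 0.0220). The sheddase Adam10 differed by -0.47 ± 0.20 (adjusted p = 0.210). The calls of Actn1, Pdlim1, Ptpn1 and Gna13 ended without the intensity trend and without pair 1 or pair 3, those of Pdlim1 and Gna13 also without pair 2 or pair 4, and those of Actn1, Ptpn1 and Gna13 also with the mean of a gene's probe sets.

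**Figure D5:**
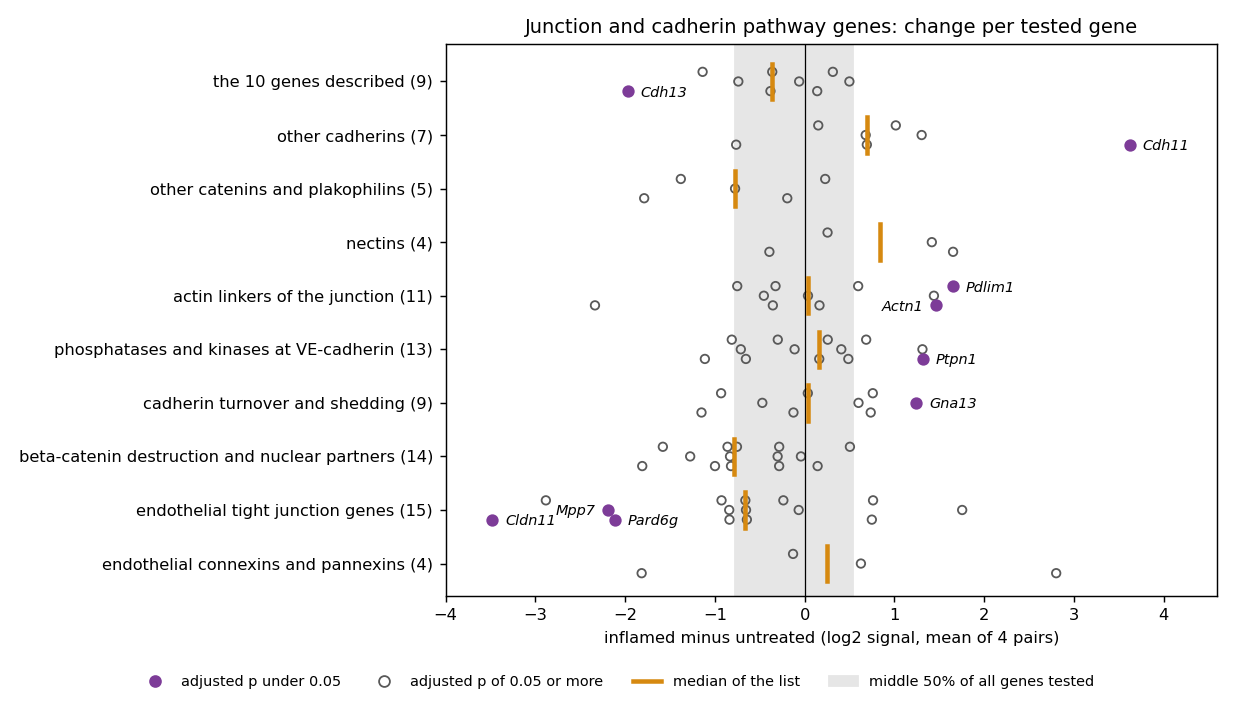
Change in log2 signal (horizontal axis, mean of 4 pairs) of each tested gene in the list of junction genes and in 9 further lists, with the number tested in brackets, filled points for an adjusted p under 0.05, orange bars for list medians and a grey band between the lower and upper quartile of all genes. Called genes lie to the left among the tight junction genes, 3 of 15, and to the right among the actin linkers, 2 of 11.

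β-catenin that is free of the junction builds up and enters the nucleus when the destruction complex fails to mark it for breakdown. Of 14 tested genes of that complex and of its nuclear partners and targets, 0 passed in limma. An unadjusted p under 0.05 was found for 3 of them, and for at least 1984 of all 10842 genes. The median change was -0.79, against -0.09 for all genes, and the mean of the list was lower in all 4 pairs, with differences of -0.17, -0.92, -0.59 and -0.95. Apc, the scaffold of the complex, differed by -0.75 ± 0.31 (adjusted p = 0.191), Tcf7l1, a partner of β-catenin on DNA, by -1.58 ± 0.66 (adjusted p = 0.200), and Nkd1, a target and antagonist of Wnt signalling, by -1.81 ± 0.79 (adjusted p = 0.223). Axin2, a widely used target gene, differed by -1.27 ± 0.88.

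Of 15 tight junction genes 3 passed the threshold downward and 0 upward, against 3.03% and 3.9% of all genes (median change -0.66): Pard6g, a polarity adaptor, had a log2 change of -2.11, the claudin Cldn11 of -3.48 and the scaffold Mpp7 of -2.19 (limma adjusted p = 0.00249, 0.00398 and 0.0205). Without the intensity trend none of the 3 passed, and Mpp7 did not pass without pair 1, 3 or 4 either. Cldn5, the main endothelial claudin, averaged 10.92 ± 0.56 in the inflamed group and 11.58 ± 0.50 in the untreated group (n = 4 each, SD), which did not pass (adjusted p = 0.0660). Of 4 connexins and pannexins 0 passed in limma (median change 0.25). An unadjusted p under 0.05 was found for 3 of them, and for at least 1984 of all 10842 genes. Gja1, a widely expressed connexin, was higher in all 4 pairs by 0.63 ± 0.17 (SE; adjusted p = 0.0545), and Gja4, a connexin of arteries and lymphatic valves, was lower in all 4, with a change of -1.82 ± 0.49 (adjusted p = 0.0612). The difference between adherens, tight and gap junction genes was not tested. Of 9 lymphatic endothelial markers 4 passed downward, Mmrn1, Reln, Nrp2 and Fxyd6, and 0 upward, against 3.03% and 3.9% of all genes. The mean of the 9 markers was 10.33 in inflamed and 11.23 in untreated samples, lower in every pair, as was the mean of the tight junction genes. Pdpn, 1 of the 9 markers, was higher in every pair.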

How the data were processed

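Per the submitters' processing notes, the deposited values are MAS5 signals, a linear intensity per probe set and array. Neither its version nor a scaling target or detection filter is named there. Per the labels' protocols, RNA of the sorted cells was amplified to single-stranded cDNA, fragmented and biotin-labelled. The table held 45101 probe sets, 64 of them controls. Of the rest, 34945 named 1 gene, 932 several and 9160 none, and 0 symbols needed updating against RefSeq.

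Signals were log2-transformed with no pseudocount. No further normalization was applied, since the medians of the arrays spanned 0.467 and the rule asked for it above 0.5. That span followed the groups: medians were 3.27 to 3.44 on inflamed and 3.56 to 3.74 on untreated arrays. Small changes therefore depend on the scaling. Dim probe sets, those averaging less than 3.30 (the median over the table), were dropped, and 22515 stayed. The brightest represented each of 10842 genes. Both levels were fitted with limma 3.58.1 in R 4.3.3 (eBayes with intensity trend), with pairs as fixed blocks, two-sided tests and Benjamini-Hochberg adjustment over the whole table. The fit was tested on simulated data. The SE is the moderated one. Pairs come from the series' design text, which gives a shared sorting and extraction day. Across genes, the partners' deviations from their group means had correlations of 0.16, -0.00, 0.08 and 0.03. Samples are pools of 3 mice, and p-values refer to pools. The number of arrays limits the precision. A single contrast used an exact sign-flip permutation over pairs.

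Members and gene lists were chosen with earlier results of these data known. A further list of pathway genes is not reported here. All members were named, and of each further list at most 4 genes with the smallest p, as well as sort and identity markers, bright or defining markers of other cell types and the 3 genes nearest to Cdh5. Cdh1, Ptprb, Axin2, Cldn5, Dsp, Dsc3, Perp and the keratins were named for their roles, and Sfn because it differed in the other direction from its list. The background ceiling used 27 bacterial control probe sets, the hybridisation spikes left out, and was set after the values had been seen.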

Additional observations from a re-analysis of the deposited data

Results flagged for a closer look

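Within a group of 4 arrays, 4 member values lay far from the other 3, by Dixon's criterion at the 95% level. Since 48 groups were examined and chance flags about 1 in 20, some such values arise by chance. Cdh2 probe set 1418815_at stood at 2.52 in untreated sample 4, against -0.59 to -0.16 in the other untreated samples, all under background. Cdh13 probe set 1454015_a_at stood at 7.06 in untreated sample 4, against 7.94 to 8.06. Ctnnb1 probe set 1430533_a_at stood at 9.11 in inflamed sample 2, against 7.98 to 8.17. Afdn probe set 1431799_at stood at 1.96 in untreated sample 1, against 6.19 to 7.03.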

How the results depend on the processing

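The number of the 9 member genes past the threshold was 1 (Cdh13). It was 0 without the replicate block or with a random block, 0 without the intensity trend and 0 to 0 when single pairs were left out. It was 2 under median centring (Ctnna1 added), 2 under quantile and 2 under cyclic loess normalization (Jup added), and 2 with the mean of a gene's probe sets. The number of member probe sets, 2, was 1 without the replicate block, 1 with a random block, 4 under median centring, 0 without the intensity trend and 0 to 0 without single pairs. Over all genes, 751 passed, 140 without the intensity trend and 332 to 503 without single pairs. Median centring moved the median change of all genes to 0.22 (718 higher, 227 lower, against 423 and 328). Changes that did not pass turned sign as follows. Ctnnb1 was 0.24 under median centring and -0.11 to 0.025 without single pairs (the same values on 1420811_a_at), and 1430533_a_at was 0.20 and -0.47 to 0.23. Without single pairs Afdn was -0.051 to 0.49, its probe set 1431799_at -0.22 to 0.86, and Cdh5 1433956_at -0.64 to 0.036. Pkp4 1438677_at was -0.026 under quantile and -0.069 under cyclic loess normalization and -0.40 to 0.52 without single pairs. Lyve1 was 0.12 under median centring. The Pkp4 to Ctnnd1 contrast was 0.78 with mean probe sets. The other contrasts kept their sign under the alternatives run. The causes were not tested. Signals near background limit Cdh2.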
